A study of Mus musculus with 17 samples.

Results

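NRF2, the transcription factor encoded by Nfe2l2, was followed together with its inhibitor Keap1 and 8 genes that it is known to switch on, in RNA-seq libraries of mouse bone marrow macrophages (BMMs) and of osteoclast precursors (preOCs, labelled OC). The 8 targets were Nqo1, Txnrd1, Srxn1, Prdx1, Osgin1, Me1, G6pdx and Sqstm1. The genes were taken by symbol, and all 10 were found among the 41388 gene identifiers of the count tables and passed the filter on low counts in every comparison. Libraries came from Bap1flox mice, in which both Bap1 alleles carry loxP sites and no Cre is present, and from Bap1LysM mice, which carry the same floxed alleles with LysM-Cre, a Cre recombinase inserted in the lysozyme gene Lyz2 that acts in the myeloid lineage. The study's methods give LysM-Cre as heterozygous (+/-), which leaves a Lyz2 allele without the insertion. Bap1 encodes a deubiquitinase of histone H2A, and controls and deleted mice alike carry the floxed alleles. BMMs were grown from marrow with M-CSF alone (3 Bap1flox and 3 Bap1LysM libraries), and preOCs received M-CSF with RANKL at 100 ng/ml for 24 h (6 Bap1flox and 5 Bap1LysM libraries). The preOC mice were 20-week-old males, the age of the BMM mice is not given in the sources used here, the study describes the preOC samples as biologically independent, and nothing in the sources used here says how the BMM replicates were separated, so their p-values may measure technical spread only.

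Under resting conditions KEAP1 binds NRF2 and delivers it to a cullin-3 ubiquitin ligase for degradation. Oxidants and electrophiles modify cysteines of KEAP1, and NRF2 then accumulates, pairs with small MAF proteins and binds antioxidant response elements in the DNA of its targets. Because NRF2 is controlled mainly through its protein, the level of Nfe2l2 mRNA does not measure its activity. In osteoclast precursors, reactive oxygen species act as signals downstream of RANKL, and NRF2 is known as a brake on osteoclast formation.

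The libraries held 37967542 to 61369441 counts, and the lowest count of any member in a library was 499, for Nqo1. Osteoclast markers, a list of 10 genes such as Acp5 and Ctsk, summed to 240.1 to 385 CPM (counts scaled to library size) in BMMs and 6089 to 15856 CPM in preOCs, and Calcr was at 0 in all Bap1LysM BMM libraries. Lyz2, which carries Cre in Bap1LysM mice, stood at 6524 CPM or more in every Bap1flox library and at 41.2 CPM or less in 6 of the 8 Bap1LysM libraries. The other two, both numbered 1, held 9547 CPM in BMMs and 6912 CPM in preOCs, which is 45.4% and 80.1% of the Bap1flox means, against 0.143% to 0.478% in the remaining 6. The Bap1flox preOC mean covers all 6 libraries. Among them, Bap1flox OC 1, 2 and 3 held 7869, 6599 and 6524 CPM, and Bap1LysM OC 1 lay within that range. A heterozygous insertion leaves an intact allele, whereas Lyz2 was nearly absent in the remaining 6 Bap1LysM libraries. Whether those 6, or the libraries labelled Bap1LysM 1, carry the stated genotype could not be checked here. The libraries labelled Bap1LysM 1 stand apart from their groups in both states. PreOC results are given with and without OC 1 where it decides the value. Bap1 itself differed by -0.22 ± 0.10 (SE) on the log2 scale in preOCs (adjusted p = 0.181 by edgeR), and counts over the whole gene cannot show loss of the floxed exons. The files use a naming form for replicates 1 to 3 and another for replicates 4 to 6, and mitochondrial genes took 0.481% to 1.074% of counts in the former and 2.364% to 5.264% in the latter, so the preOC results that the text turns on are also given within each set.

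The genomic window around the start site bears on which members hold the sequence that NRF2 reads. RefSeq promoters of GRCm38.p6, each covering 250 bases before the start site and 50 bases from it, were found for all 10 genes, 13 promoters in all. The core of the antioxidant response element, TGACNNNGC, was searched on both strands and stood in 6 of the 13 promoters, each of a different gene, against 12.4% of all 32851 promoters of that length. It was found in Nfe2l2, Txnrd1, Srxn1, Prdx1, Me1 and G6pdx and not in these windows of Keap1, Nqo1, Osgin1 and Sqstm1. A match is a description of the letters and no shown site of binding. The stretches below run 5′ to 3′ along the gene's own strand from 150 bases before the start site to the 20th base from it, and hold a core in capitals. They are shown because Me1 and G6pdx passed the test between genotypes in preOCs, whereas Txnrd1 and Prdx1, which also hold a core before the start site, did not. They lie at chr9:86695895-86696064 (minus strand) for Me1, chrX:74428861-74429030 (minus strand) for G6pdx, chr10:82859056-82859225 (plus strand) for Txnrd1 and chr4:116685449-116685618 (plus strand) for Prdx1.
Me1: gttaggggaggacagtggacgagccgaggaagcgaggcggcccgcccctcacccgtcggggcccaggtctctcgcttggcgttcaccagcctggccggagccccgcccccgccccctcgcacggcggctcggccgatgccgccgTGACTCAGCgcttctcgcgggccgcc
G6pdx: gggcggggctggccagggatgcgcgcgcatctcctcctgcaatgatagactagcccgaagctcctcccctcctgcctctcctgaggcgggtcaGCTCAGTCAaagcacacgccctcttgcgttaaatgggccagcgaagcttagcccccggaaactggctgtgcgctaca
Txnrd1: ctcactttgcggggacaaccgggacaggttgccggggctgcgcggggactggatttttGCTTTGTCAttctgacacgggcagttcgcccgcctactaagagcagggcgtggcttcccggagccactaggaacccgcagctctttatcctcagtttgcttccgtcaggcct
Prdx1: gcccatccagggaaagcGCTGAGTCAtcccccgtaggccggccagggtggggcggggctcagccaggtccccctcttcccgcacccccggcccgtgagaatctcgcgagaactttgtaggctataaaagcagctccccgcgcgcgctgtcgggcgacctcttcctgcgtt

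The core begins 6 bases before the start site in Me1, 57 in G6pdx, 92 in Txnrd1 and 133 in Prdx1. In Me1 it reads TGACTCAGC on the strand of the gene, and in the other genes shown it lies on the opposite strand. The cores of Me1 and Prdx1 overlap an AP-1 site, TGANTCA, which stood in 7.81% of all promoters, whereas those of G6pdx and Txnrd1 do not. The RefSeq start sites lie 39 bases from the gene start of the count tables in Me1, 314 in G6pdx, 0 in Txnrd1 and 55 in Prdx1.

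Levels of different genes can be compared only per length, as RPKM, the reads of a gene scaled by its length and by library size. On that scale Prdx1, a peroxiredoxin that reduces hydrogen peroxide, was the most abundant member in Bap1flox BMMs at 683 ± 9.25 RPKM (SD, n = 3), followed by Sqstm1 at 336 ± 9.49, G6pdx at 159 ± 3.40, Txnrd1 at 111 ± 1.49, Srxn1 at 85.3 ± 6.03 and Nfe2l2 at 60.6 ± 5.42. Osgin1 at 42.3 ± 9.48, Keap1 at 21.1 ± 0.302, Nqo1 at 10.6 ± 4.89 and Me1 at 7.55 ± 0.163 RPKM closed the order. Only Nqo1 and Me1 overlapped as neighbours in that group. In Bap1flox preOCs the order of the first 2 genes was kept, Txnrd1 at 134 ± 17.4 RPKM (n = 6) stood above G6pdx at 79.7 ± 15.0, and Osgin1 was ninth at 9.86 ± 2.83, above Me1 at 4.58 ± 0.434 RPKM. The ranges of G6pdx and Srxn1, of Srxn1 and Nfe2l2, and of Keap1, Nqo1 and Osgin1 overlapped there.

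**Figure D1:**
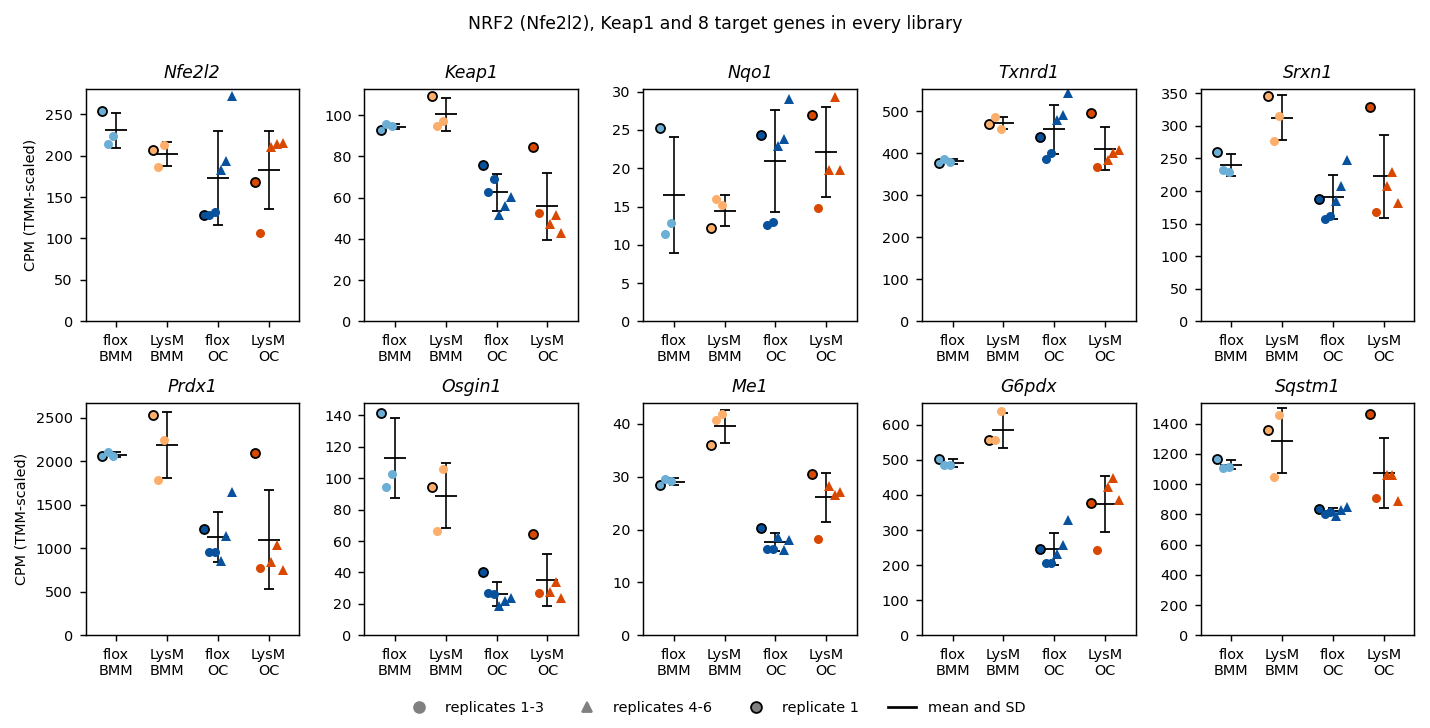
Level of each gene in every library, in CPM after TMM scaling (vertical axis, from 0), by group (horizontal axis). Circles are replicates 1 to 3 and triangles replicates 4 to 6, replicate 1 is outlined, and bars give the mean and SD of a group. Most members are lower in OC than in BMM libraries, Me1 and G6pdx are higher in 4 of 5 Bap1LysM OC libraries than in every Bap1flox OC library, and OC 1 of both genotypes is high for Keap1 and Osgin1.

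RANKL was examined first, in the 11 libraries of replicates 1 to 3, the only ones that include both BMMs and preOCs. In Bap1flox cells 7 of the 10 members fell with RANKL and none rose, at a threshold of 0.05 on p-values from the quasi-likelihood test of edgeR, adjusted by Benjamini and Hochberg's method over all genes, which holds for every adjusted p given here. Over all 13635 genes tested, 28.7% fell, 29.4% rose and 58.1% passed in either direction. The median log2 fold change was -0.60 over the members and -0.03 over all genes. Osgin1 fell most, followed by G6pdx, Prdx1, Nfe2l2, Me1, Sqstm1 and Keap1. BMMs and preOCs differ in RANKL and in the cell state that it brings, and in bulk samples fewer cells of a type cannot be told apart from less RNA per cell. Summed macrophage markers stood at 7917 to 9852 CPM in Bap1flox BMMs and 3412 to 3606 CPM in Bap1flox preOCs 1 to 3. B and plasma cell markers stood at 96.7 to 122 CPM and 7.03 to 15.5 CPM. The part of these markers in the RANKL results was not tested.

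Nfe2l2 (ENSMUSG00000015839, chr2:75675513-75704641, minus strand) held 253, 214 and 224 CPM in Bap1flox BMMs 1, 2 and 3 and 129, 129 and 132 CPM in the matching preOCs. All 3 preOC libraries lay below all 3 BMM libraries, a log2 fold change of -0.82 ± 0.14 (SE, adjusted p = 0.000754). Groups without overlap were common here, at 70.8% of all genes (35.8% lower and 35.0% higher with RANKL), and 8 of the 10 members lay lower without overlap. Keap1 (ENSMUSG00000003308, chr9:21229730-21239332, minus strand) held 92.9, 95.5 and 94.9 CPM in BMMs and 75.96, 62.6 and 69.2 CPM in preOCs. It fell by 0.44 on the log2 scale (SE 0.14, adjusted p = 0.0238), so that the factor and its inhibitor were both lower with RANKL. Of its exonic bases, 510 are shared with Gm16754, an antisense gene with 507 counts over the 17 libraries against 60644 for Keap1.

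Osgin1 (ENSMUSG00000074063, chr8:119434124-119446256, plus strand), a growth inhibitor induced by oxidative stress, showed the largest difference of the members. It held 142, 94.2 and 103 CPM in Bap1flox BMMs and 40.6, 26.7 and 26.4 CPM in preOCs. The log2 fold change was -1.85 ± 0.32 (adjusted p = 0.000843), and library 1 was the highest of its group in both states.

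Prdx1 (ENSMUSG00000028691, chr4:116685544-116700822, plus strand) held 2059, 2109.9 and 2064 CPM in Bap1flox BMMs and 1225, 959 and 962 CPM in preOCs. It fell by 0.98 on the log2 scale (SE 0.29, adjusted p = 0.0154). Srxn1 (ENSMUSG00000032802, chr2:152105516-152111376, plus strand) encodes sulfiredoxin, which restores peroxiredoxins that hydrogen peroxide has over-oxidized. Its BMM libraries held 260.02, 232 and 229 CPM and its preOC libraries 187, 157 and 161 CPM, without overlap. The difference was -0.50 ± 0.20 and its adjusted p of 0.0503 just missed the threshold, while with each replicate number as a block it was 0.0105.

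Txnrd1 and Nqo1 were the members whose Bap1flox ranges overlapped between BMMs and preOCs. Txnrd1 (ENSMUSG00000020250, chr10:82859206-82897724, plus strand), a selenoprotein that reduces thioredoxin with NADPH, held 376, 386 and 379.7 CPM in BMMs and 438, 386 and 402 CPM in preOCs, with a log2 fold change of 0.11 (95% interval -0.12 to 0.34, adjusted p = 0.376). Nqo1 (ENSMUSG00000003849, chr8:107388225-107403206, minus strand), a quinone reductase widely used as a read-out of NRF2, held 25.2, 11.4 and 12.8 CPM in BMMs and 24.4, 12.5 and 13.0 CPM in preOCs. Its difference was 0.02 with an interval of -0.77 to 0.82 (adjusted p = 0.957), an interval that holds sizeable changes in either direction. Library 1 was well above the other libraries of its group for Nqo1 in both states. Markers of stromal cells, 6 genes such as Col1a1, summed to 489 CPM in Bap1flox BMM 1 against 2410.1 and 2752 CPM in BMMs 2 and 3, and their part in the spread of Nqo1 was not tested.

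The members that supply NADPH both fell. G6pdx (ENSMUSG00000031400, chrX:74409483-74429194, minus strand), the first enzyme of the pentose phosphate pathway, held 503, 485 and 484 CPM in Bap1flox BMMs and 245, 205 and 205 CPM in preOCs. The log2 fold change of -1.16 ± 0.14 had the lowest adjusted p of the members, 0.000121. Me1 (ENSMUSG00000032418, chr9:86581371-86695953, minus strand), the cytosolic malic enzyme that makes pyruvate and NADPH from malate, held 28.4, 29.6 and 29.2 CPM in BMMs and 20.4, 16.4 and 16.3 CPM in preOCs, and fell by 0.71 (SE 0.16, adjusted p = 0.00416). G6pdx shares 418 exonic bases with Ikbkg on the opposite strand (71931 counts against 320379), whether counting used strand is not given in the sources used here, and its intronless copy G6pd2 held 1940 counts in all. Sqstm1 (ENSMUSG00000015837, chr11:50199366-50210827, minus strand), an autophagy receptor that also binds KEAP1, held 1165, 1107 and 1114 CPM in BMMs and 835, 802 and 813 CPM in preOCs, a fall of 0.46 (SE 0.17, adjusted p = 0.0371). It shares 580 exonic bases with Mrnip on the opposite strand, which held 1221 counts against 862527. With Bap1flox OC 2 or OC 3 left out, 4 members (Nfe2l2, G6pdx, Osgin1 and Me1) passed in place of 7. Of all genes, 50.2% and 50.7% passed there in place of 58.1%.

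**Figure D2:**
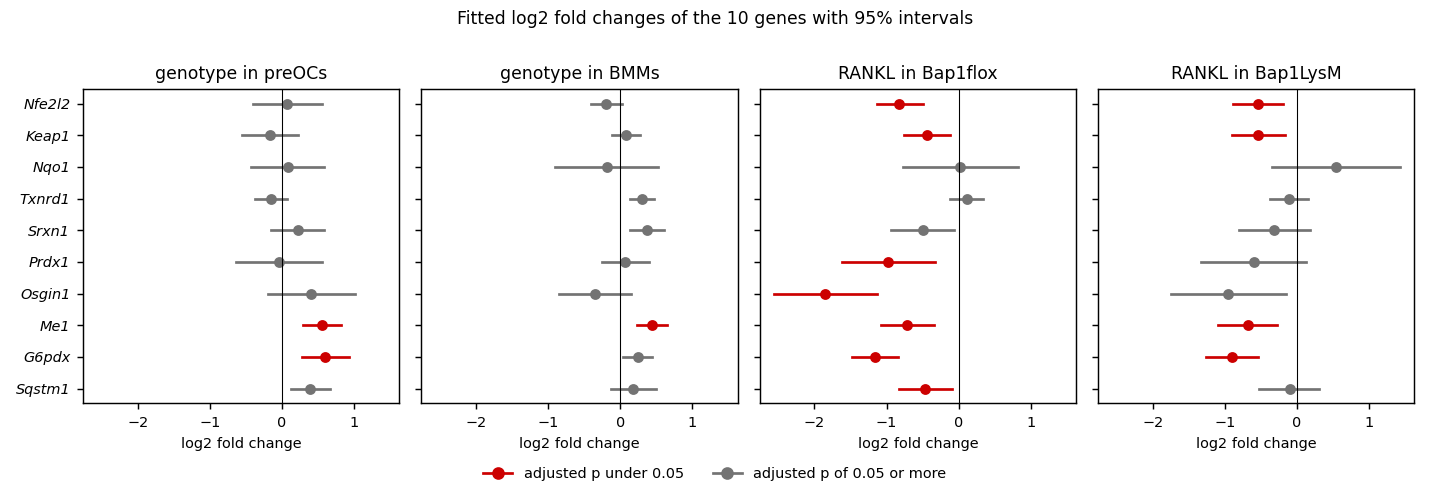
Fitted log2 fold change of each gene (points) with its 95% interval (lines) in 4 comparisons that share a horizontal axis. Genotype panels give Bap1LysM over Bap1flox and RANKL panels give preOC over BMM, with red for an adjusted p under 0.05. In Bap1flox cells 7 genes fell with RANKL, in Bap1LysM cells 4, and by genotype Me1 and G6pdx were higher in preOCs and Me1 in BMMs.

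In Bap1LysM cells, 4 of the 10 members fell with RANKL and none rose, where 17.7% of all genes fell, 21.2% rose and 38.9% passed in either direction. These were G6pdx at -0.90 ± 0.16 (adjusted p = 0.00224), Me1 at -0.68 ± 0.18 (0.0149), Nfe2l2 at -0.54 ± 0.16 (0.0208) and Keap1 at -0.54 ± 0.16 (0.0253). Osgin1 stood at -0.95 ± 0.36 (0.0588, with groups that did not overlap, as for 26.6% of genes that were lower, 28.7% that were higher and 55.3% in all), Prdx1 at -0.60 ± 0.33 (0.176), Srxn1 at -0.32 ± 0.22 (0.283) and Sqstm1 at -0.10 ± 0.19 (0.696). The median was -0.54 over the members and 0.01 over all genes.

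This comparison has only preOC libraries 1 and 2, and they disagree. Prdx1 held 2536, 1781 and 2247 CPM in Bap1LysM BMMs 1, 2 and 3, and then 2097 CPM in preOC 1 and 776 CPM in preOC 2. Sqstm1 held 1359, 1046 and 1456 CPM in the BMMs, 1464 CPM in preOC 1 and 907 CPM in preOC 2. PreOC 1, the library with Lyz2 at 80.1% of the Bap1flox mean, was above preOC 2 for each of the 10 members. Without it, 9 members fell, all but Nqo1, and without both Bap1LysM libraries numbered 1, 8 fell. Without preOC 2, only G6pdx fell, and with all 17 libraries and a term for the library set, 7 fell, all but Nqo1, Txnrd1 and Sqstm1. With the replicate number as a block, Osgin1 and Prdx1 joined the 4, and 34.6% of all genes passed. The share of all genes called also moved with the libraries fitted, for example from 38.9% to 31.5% without Bap1LysM BMM 3. Counts of members in these fits are therefore no result about the members alone. The preOC 1 libraries also had the lowest summed osteoclast markers of their genotypes, 6598 CPM in Bap1flox against 10605 to 14200 CPM in the others, and 6089 CPM in Bap1LysM against 13512 to 15856 CPM. Their part in the result was not tested.

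Whether the RANKL response differed between genotypes was tested as an interaction, the log2 fold change in Bap1LysM minus that in Bap1flox. No member passed, and none of the 13635 genes did (0.0%), although 1718 genes (12.6%) had an unadjusted p under 0.05, and DESeq2 called 63 genes positive and 50 negative, none of them members. The largest values were 0.89 for Osgin1 (95% interval -0.14 to 1.93, adjusted p = 0.459) and 0.52 for Nqo1 (interval -0.68 to 1.71). Without Bap1LysM OC 1 they were 0.17 ± 0.40 for Osgin1 and 0.06 ± 0.59 for Nqo1, and without Bap1LysM OC 2 Osgin1 was 1.37 ± 0.39 (adjusted p = 0.119). Me1 stood at 0.02 (interval -0.52 to 0.56), and at -0.36 ± 0.18 without OC 1 and 0.32 ± 0.18 without OC 2. Txnrd1 stood at -0.22 (interval -0.57 to 0.12), at -0.43 ± 0.12 without OC 1 (adjusted p = 0.216), at -0.04 ± 0.12 without OC 2, and at -0.44 ± 0.14 with all 17 libraries and a term for the set (0.0541). The counts of 4 and 7 members thus come with no test that separates the genotypes.

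Between genotypes in preOCs, Me1 and G6pdx were higher in Bap1LysM and no member was lower. Nfe2l2, Keap1 and Nqo1 did not pass the test. The 2 of 10 members compare with 7.12% of the 12919 genes tested that were higher, 8.67% that were lower and 15.8% that passed in either direction, and the median log2 fold change was 0.15 over the members and -0.01 over all genes.

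Nfe2l2 ranged from 129 to 272 CPM in Bap1flox preOCs (median 157) and held 168, 106, 210.1, 214 and 215 CPM in Bap1LysM preOCs 1, 2, 4, 5 and 6. The groups overlapped, with preOC 2 of Bap1LysM below and preOC 6 of Bap1flox above the range of the other group (0.07 ± 0.22, 95% interval -0.40 to 0.55, adjusted p = 0.843), and in both genotypes replicates 4 to 6 stood above replicates 1 to 3. Keap1 ranged from 51.5 to 75.96 CPM (median 61.4) in Bap1flox and held 84.4, 52.6, 47.4, 51.6 and 43.0 CPM in Bap1LysM. Here preOC 1 was the highest library of all and the other 4 Bap1LysM libraries were below nearly all Bap1flox libraries, with a difference of -0.17 ± 0.18 (adjusted p = 0.549) that became -0.37 ± 0.13 (0.0587) without preOC 1.

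Me1 ranged from 16.2 to 20.4 CPM in Bap1flox preOCs (median 17.2) and held 30.4, 18.2, 28.3, 26.6 and 27.0 CPM in Bap1LysM preOCs 1, 2, 4, 5 and 6. Of the 5 Bap1LysM libraries, 4 lay above every Bap1flox library, and preOC 2 lay within the Bap1flox range. The log2 fold change was 0.56 ± 0.12 (adjusted p = 0.0101), 0.49 ± 0.12 without preOC 1 (0.0135) and 0.63 ± 0.09 within replicates 4 to 6 (0.00124). It passed with any single library left out.

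G6pdx ranged from 205 to 329.8 CPM in Bap1flox (median 238) and held 376, 243, 421, 449 and 385 CPM in Bap1LysM. The same 4 libraries lay above the Bap1flox range and preOC 2 within it. The difference was 0.60 ± 0.15 (adjusted p = 0.0192), 0.60 ± 0.16 without preOC 1 (0.0232) and 0.62 ± 0.13 within replicates 4 to 6 (0.00782). Leaving out Bap1LysM OC 4 or OC 5 ended this call, at adjusted p = 0.0584 and 0.0603. Within replicates 1 to 3, with 3 against 2 libraries, Me1 stood at 0.46 ± 0.24 and G6pdx at 0.51 ± 0.20, and neither passed (adjusted p = 0.361 and 0.273), where edgeR passed no gene of 13120 and 2337 had an unadjusted p under 0.05.

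Of the summed cell markers, the macrophage list split the preOC libraries as Me1 and G6pdx did. Macrophage markers, 6 genes such as Csf1r and Adgre1, summed to 5143, 3520 (preOC 2), 5407, 5477 and 4819 CPM in the Bap1LysM preOCs and to 3412 to 4566 CPM in Bap1flox, so that preOC 2 was again the library within the control range. Of the 6 genes, 5 had a higher median in Bap1LysM preOCs and Fcgr1 a lower one (7.92 against 13.2 CPM), and Adgre1 ranged from 267 to 1010.4 CPM against 363 to 566 CPM. Dendritic cell markers, 5 genes, summed to 5.21, 7.998, 6.61 and 6.42 CPM in Bap1LysM preOCs 2, 4, 5 and 6, above the Bap1flox range of 2.14 to 4.38 CPM, and to 2.88 CPM in preOC 1. Among them Zbtb46 differed most (median 4.59 against 1.70 CPM in Bap1flox). Flt3 and Clec9a also had a higher median in Bap1LysM preOCs, and Xcr1 (0.516 against 0.844 CPM) and Siglech (0.183 against 0.252 CPM) a lower one. Neutrophil markers, 8 genes such as S100a8, S100a9 and Ly6g, summed to 446 to 601 CPM in Bap1LysM preOCs 4 to 6, 171 and 168 CPM in preOCs 1 and 2, and 61.4 to 181 CPM in Bap1flox. Each of the 8 neutrophil markers had a higher median in Bap1LysM preOCs, from Ngp at 182 against 46.8 CPM to Ly6g at 0.143 against 0.0219 CPM. B and plasma cell markers held 11.1, 20.4, 44.9, 48.1 and 34.8 CPM in Bap1LysM preOCs 1, 2, 4, 5 and 6 and 7.03 to 15.5 CPM in Bap1flox. Among these markers Ighm (median 27.2 against 9.39 CPM) and Jchain (6.50 against 0.357 CPM) had a higher median in Bap1LysM preOCs, and Cd79a, Cd79b and Ms4a1 a lower one. The neutrophil and B cell sums of preOC 1 thus lay inside the ranges over all Bap1flox preOCs, and so did the neutrophil sum of preOC 2. Both neutrophil sums lay above those of Bap1flox preOCs 1, 2 and 3, at 61.4, 118 and 156 CPM. Mitochondrial genes also took more of the counts in Bap1LysM than in the same-numbered Bap1flox preOC in all 5 pairs (1.02% against 0.667%, 1.07% against 0.481%, 3.38% against 2.84%, 3.71% against 2.36% and 5.26% against 3.64% for numbers 1, 2, 4, 5 and 6). The part of the markers and of the mitochondrial share in the results was not tested.

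Sqstm1 was the member whose genotypes did not overlap in preOCs, a pattern of 9.42% of all genes (3.34% higher and 6.08% lower in Bap1LysM). Its Bap1flox libraries were tightly set, from 791 to 849 CPM (median 821), and its Bap1LysM libraries held 1464, 907, 1057, 1063 and 886 CPM. The log2 fold change of 0.39 ± 0.12 had an adjusted p of 0.0535. It passed in a fit blocked by replicate number (0.37 ± 0.11, adjusted p = 0.0374), with the library set as a term (0.40 ± 0.11, 0.0162) and without preOC 1 (0.25 ± 0.08, 0.0402), but not without the preOC 1 libraries of both genotypes (0.25 ± 0.08, 0.0551), within replicates 4 to 6 (0.28 ± 0.10, 0.0524) or within replicates 1 to 3 (0.54 ± 0.21, 0.268). Sqstm1 also passed with DESeq2 (22.5% of all genes passed there), with voomWithQualityWeights, the test in the study's methods (54.9%), and with RLE scaling (16.1%). So it did with all 17 libraries in 1 fit (19.1%) and without Bap1LysM OC 2 (21.6%) or OC 6 (11.4%), and it missed the threshold in the remaining fits.

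The thioredoxin and peroxiredoxin members did not pass over all preOC libraries, and Bap1LysM OC 1 was the highest Bap1LysM library for each of them. Txnrd1 ranged from 386 to 544 CPM in Bap1flox (median 459) and held 497, 366, 384, 402 and 407 CPM in Bap1LysM, with a difference of -0.15 ± 0.10 (adjusted p = 0.342). Within replicates 4 to 6, where Bap1flox libraries held 479 to 544 CPM, all 3 Bap1LysM libraries were lower, by -0.35 ± 0.08 on the log2 scale (adjusted p = 0.0122). Within replicates 1 to 3 it was 0.08 ± 0.15, with OC 1 above and OC 2 below all 3 Bap1flox libraries of that set, and without OC 1 the fit of the remaining preOC libraries gave -0.23 ± 0.09 (0.0787). Prdx1 ranged from 853 to 1641 CPM in Bap1flox (median 1053) and held 2097, 776, 840.2, 1032 and 751 CPM in Bap1LysM. Its difference was -0.04 ± 0.27 over all libraries (adjusted p = 0.935), 0.45 ± 0.40 in replicates 1 to 3 (0.584) and -0.48 ± 0.22 in replicates 4 to 6 (0.123). OC 1 was the highest preOC library for Prdx1 and OC 2 lay below all Bap1flox libraries, and without OC 1 the difference was -0.42 ± 0.17 (0.101). Srxn1 ranged from 157 to 247 CPM in Bap1flox (median 186) and held 328, 168, 207, 229 and 182 CPM in Bap1LysM, with overlap and a difference of 0.22 ± 0.17 (0.408) that was 0.03 ± 0.12 without OC 1 (0.86).

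Osgin1 ranged from 18.8 to 40.6 CPM in Bap1flox preOCs (median 25.2) and held 64.4, 26.9, 27.8, 34.0 and 23.6 CPM in Bap1LysM. The difference of 0.41 ± 0.28 (adjusted p = 0.34) became 0.08 ± 0.20 without preOC 1. Nqo1 ranged from 12.5 to 29.0 CPM in Bap1flox (median 23.4) and held 26.9, 14.8, 19.8, 29.3 and 19.8 CPM in Bap1LysM. Its groups covered the same range, with a difference of 0.08 ± 0.23 and an interval of -0.43 to 0.58 (adjusted p = 0.848).

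**Figure D3:**
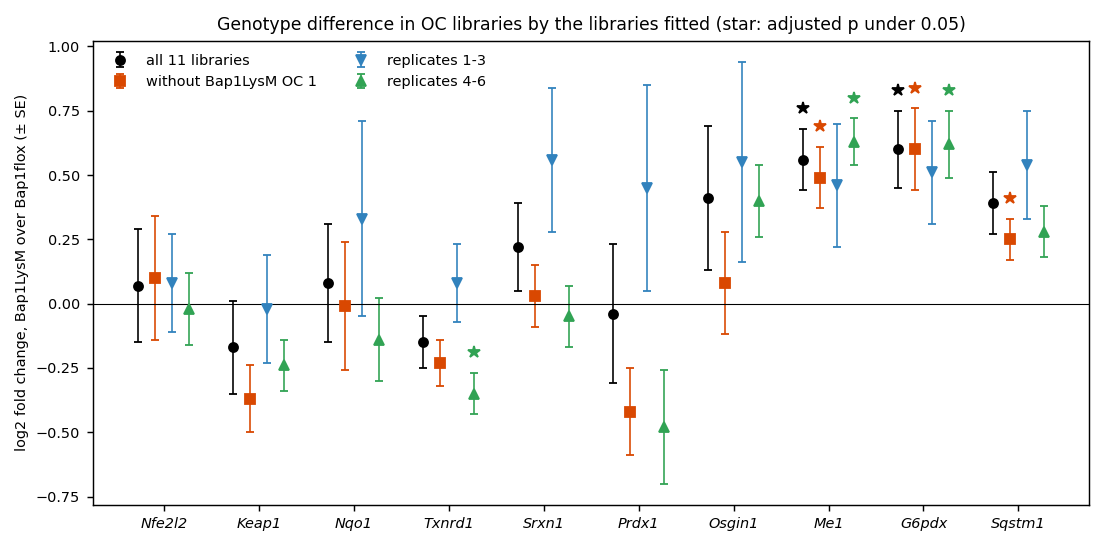
Log2 fold change of Bap1LysM over Bap1flox (vertical axis, ± SE) of each gene in OC libraries, fitted on all 11 libraries, without Bap1LysM OC 1, on replicates 1 to 3 (3 against 2) and on replicates 4 to 6 (3 against 3). Stars mark an adjusted p under 0.05. Me1 and G6pdx lie between 0.46 and 0.63 in every subset, whereas Prdx1 is -0.04 over all libraries and -0.42 without OC 1, and Txnrd1 is -0.15 and -0.23.

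Before RANKL, Me1 was the only member that passed between genotypes. It held 28.4, 29.6 and 29.2 CPM in Bap1flox BMMs and 36.0, 40.8 and 41.8 CPM in Bap1LysM BMMs, a difference of 0.44 ± 0.09 (adjusted p = 0.0429), where 1.31% of 13028 genes were higher, 4.01% lower and 5.32% passed in all. The groups did not overlap for Me1, Txnrd1, Srxn1, G6pdx (all higher in Bap1LysM) and Nfe2l2 (lower), against 33.9% of all genes (16.7% higher and 17.2% lower), which is 4 of 10 members higher and 1 lower. Txnrd1 held 376, 386 and 379.7 CPM against 469.8, 487 and 459 CPM (0.30 ± 0.07, adjusted p = 0.0597). Srxn1 held 260.02, 232 and 229 CPM against 345, 277 and 315 CPM (0.37 ± 0.10, 0.082). Blocked by replicate number, Me1, Srxn1 and Txnrd1 passed, at adjusted p = 0.027, 0.0332 and 0.0468. G6pdx held 503, 485 and 484 CPM against 556, 556 and 640.1 CPM (0.24 ± 0.08, 0.131).

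Nfe2l2 held 253, 214 and 224 CPM in Bap1flox BMMs and 207, 186 and 213 CPM in Bap1LysM BMMs, so that the mRNA of the factor was the member that lay lower without overlap (-0.20 ± 0.09, adjusted p = 0.224). Keap1 (109, 94.6 and 97.3 CPM in Bap1LysM), Prdx1, Sqstm1, Nqo1 (12.2, 15.97 and 15.2 CPM) and Osgin1 (94.3, 66.4 and 106 CPM) overlapped between genotypes, with adjusted p from 0.321 to 0.78. Me1 kept its call without Bap1LysM BMM 1 (0.50 ± 0.08, 0.0441) and lost it when any of the other 5 libraries was left out, with adjusted p from 0.0685 to 0.179. Stromal markers summed to 366 to 1289.9 CPM in Bap1LysM BMMs and 489 to 2752 CPM in Bap1flox BMMs, and their part in these results was not tested.

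A list of 110 other genes of the NRF2 pathway was examined beside the members. In preOCs 104 were tested, 20 were higher and 9 lower in Bap1LysM, where 7.12% of all genes were higher and 8.67% lower, and their median log2 fold change was 0.14 against -0.01 over all genes. The highest were Gsta3 at 1.87 ± 0.21 (adjusted p = 0.000464), a glutathione S-transferase with a mean of 14.4 CPM in Bap1flox and 53.0 CPM in Bap1LysM, Ephx1 at 1.49 ± 0.26 (0.00393), the microsomal epoxide hydrolase, and Slc7a11 at 1.26 ± 0.18 (0.00122), the cystine and glutamate exchanger. The lowest were Fyn at -1.02 ± 0.21 (0.00769), a kinase that promotes export of NRF2 from the nucleus, Abcc4 at -0.76 ± 0.11 (0.00163), an efflux pump, and Cbr1 at -0.62 ± 0.14 (0.0144), a carbonyl reductase. In BMMs 3 of 103 were higher and 1 lower, against 1.31% and 4.01% of all genes, with a median of 0.01. Those were Gsta3 at 1.04 ± 0.20 (0.0409), the NADPH-forming transhydrogenase Nnt at 0.79 ± 0.09 (0.0121), the glutathione peroxidase Gpx1 at 0.61 ± 0.13 (0.0499) and, lower, the glucuronosyltransferase Ugt1a6a at -0.93 ± 0.19 (0.0448).

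The lists by role are given against 7.12% of all genes higher and 8.67% lower in preOCs, and differences between lists were not tested. Of 9 haem and iron genes 4 were higher and none lower, and all 9 had a log2 fold change above 0 (median 0.35). Of 13 NADPH supply genes 2 were higher and 2 lower, of 15 thioredoxin and peroxiredoxin genes 1 was higher and 2 lower (median 0.02), and of 19 genes of quinone, carbonyl and xenobiotic metabolism 3 were higher and 2 lower (median 0.00). Of 16 regulators of NRF2, 4 were higher and 1 lower. Of 11 glutathione genes 3 were higher and 1 lower (median 0.28), of 4 dismutase and catalase genes 2 were higher and 1 lower, and of 17 genes of selective autophagy 1 was higher, while 16 had a log2 fold change above 0 (median 0.20).

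With RANKL, 59 of the 104 pathway genes fell and 20 rose in Bap1flox cells (median -0.40), where 28.7% of all genes fell and 29.4% rose. In Bap1LysM cells 46 fell and 15 rose (median -0.45), where 17.7% of all genes fell and 21.2% rose. In Bap1flox cells 8 of 9 haem and iron genes fell (median -0.97), as did 14 of 17 genes of selective autophagy (median -0.73) and 11 of 19 of quinone, carbonyl and xenobiotic metabolism (median -0.68). The NADPH supply genes split, 5 up and 5 down. The largest falls in Bap1flox cells were Slc40a1 at -3.90 ± 0.41 (adjusted p = 5.26e-05), the iron exporter ferroportin, Mgst1 at -2.93 ± 0.33 (7.95e-05), a microsomal glutathione transferase, and Sesn3 at -2.89 ± 0.30 (4.94e-05), a sestrin. The largest rises were Ephx2 at 3.83 ± 0.73 (0.00139), the soluble epoxide hydrolase, which at a mean of 0.464 CPM in Bap1flox BMMs and 0.454 CPM in Bap1LysM BMMs passed the filter only through its preOC level, Mthfd1 at 1.70 ± 0.22 (0.000143), a folate enzyme, and Bach2 at 1.48 ± 0.48 (0.0223), a repressor of the CNC family to which NRF2 belongs. In Bap1LysM cells Sesn1 at -2.73 ± 0.18 (1.88e-05), Sesn3 at -2.47 ± 0.35 (0.000629) and Slc40a1 at -2.25 ± 0.44 (0.00336) fell most, and Ephx2 at 3.94 ± 0.76 (0.00318, with the same limit), Slc7a11 at 2.08 ± 0.29 (0.00058) and the small MAF gene Maff at 1.82 ± 0.42 (0.00726) rose most. No pathway gene passed the interaction by edgeR in the main fit of replicates 1 to 3, where DESeq2 called 4. The edgeR fit of all 17 libraries with a term for the library set did call pathway genes, as given in the last section.

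**Figure D4:**
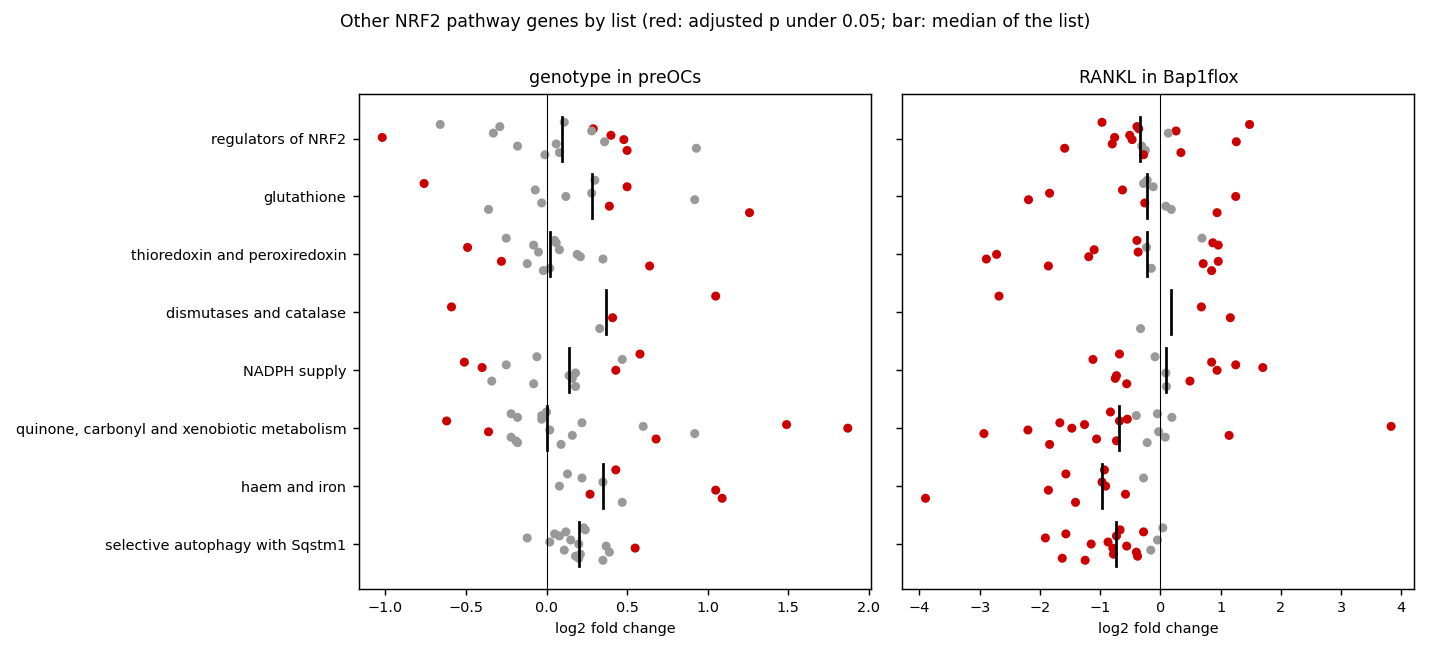
Log2 fold change (horizontal axis) of each other NRF2 pathway gene tested, by list (vertical axis), for genotype in preOCs (left) and RANKL in Bap1flox cells (right), each panel with its own scale. Red points have an adjusted p under 0.05 and black bars are list medians. On the right the haem and iron, autophagy and quinone lists lie mostly below 0, with medians of -0.97, -0.73 and -0.68.

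Across the 17 libraries the other members followed Nfe2l2 to differing degrees. Pearson's r of log2 CPM with Nfe2l2 was positive for each of them, highest for G6pdx (0.69) and Srxn1 (0.56) and lowest for Keap1 (0.17). Me1 and G6pdx followed each other most closely (r = 0.94), then Keap1 and Prdx1 (0.92), and Nqo1 had r between -0.41 and 0.41 with every other member. The 5 genes most like Nfe2l2 among 12418 were Spg20 (0.96), Dnajc14 (0.945), Tpp1 (0.937), Picalm (0.931) and Mospd1 (0.93), and those most like Nqo1 were Lrrfip1 (0.824), Gm15931 (0.814), Itprid2 (0.811), Ids (0.81) and Dclre1b (0.81). These correlations are descriptions over libraries that share cell state, library set and genotype, and carry no test.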

How the data were processed

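RNA was selected with oligo-dT beads and sequenced as paired ends. The authors' processing, per the methods and labels, used bcl2fastq, STAR 2.5.1a and Subread featureCounts 1.4.6-p5 on uniquely aligned, unambiguous reads, with Ensembl release 76 of GRCm38. Whether strand was used is not given in the sources used here. Each deposited table holds gene counts, CPM and RPKM. The deposited counts were tested, and levels are given as CPM, or as the deposited RPKM, divided by TMM factors over 17 libraries. Symbols from the reference matched 40254 of 41388 identifiers (97.3%), and 355 ribosomal RNA genes were left out.

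Tests used edgeR 4.0.16 (quasi-likelihood, TMM) in R 4.3.3 with Benjamini-Hochberg adjustment over all genes tested. The filter was above 1 CPM in at least 4 of the 11 preOC libraries, or in 2 libraries in BMMs and in the fit of all 4 groups of replicates 1 to 3. DESeq2 1.42.0, voomWithQualityWeights of limma 3.58.1 (the test in the study's methods), other scaling and filters, replicate blocks, library sets and leaving out libraries were tried. Leaving out OC 1 of both genotypes was chosen after seeing the data. Same-numbered libraries deviated together, with r of 0.392 to 0.73 between genotypes in preOCs and 0.363 to 0.537 in BMMs, and 0.231 to 0.496 between BMMs and preOCs. Within preOC replicates 4 to 6 r was only -0.146 to 0.0587.

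On simulated counts, 74% of genes changed 2-fold and 93% of those changed 4-fold were recovered between genotypes in preOCs (12919 genes), 57% and 89% in BMMs (13028 genes), and 24% and 70% for the interaction (13635 genes). Of the genes called there, 2.9%, 9.3% and 4.1% were false, so the share was above the nominal 5% in the BMM draw. Counts were drawn only once for each comparison, with a small part of the genes in brackets changed, so these shares carry no spread. The draws also held no library sets and no shift shared by the genes of a library. The members and lists were chosen with earlier results of these data known. Pathway genes named in the text are up to 3 in each direction with the largest fold change past the threshold.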

Additional observations from a re-analysis of the deposited data

Results flagged for a closer look

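Of 20 groups of 5 or 6 preOC libraries, 1 for each gene and genotype, 4 held a library far from the others, where chance gives about 1 in 20. All 4 were the highest value of a library numbered 1. In Bap1LysM OC 1, Keap1 stood at 84.4 CPM, Prdx1 at 2097 CPM and Osgin1 at 64.4 CPM, with gaps to the next library of 0.769, 0.791 and 0.744 of the whole range against a critical value of 0.71. In Bap1flox OC 1, Osgin1 stood at 40.6 CPM, with a gap of 0.638 against 0.625. Summed osteoclast markers were lowest in these same libraries, at 6089 CPM and 6598 CPM, and their part in these values was not tested.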

How the results depend on the processing

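Me1 in preOCs and G6pdx, Nfe2l2, Osgin1 and Me1 with RANKL in Bap1flox kept their direction, and every reversal listed here was of a value that missed the threshold. Causes of the changes listed here were not tested, and fewer libraries alone lower the counts of calls. In preOCs, 2 members passed, 5 with voomWithQualityWeights (Keap1 and Txnrd1 lower, and 54.9% of all genes passed there), 0 in replicates 1 to 3 alone and 1 to 3 with a library left out (1 without Bap1LysM OC 4 or OC 5). Of the other pathway genes 29 passed, 64 with voomWithQualityWeights, 45 with the replicate block (32.8% of all genes), 48 with a term for the library set (33.6%), 0 in replicates 1 to 3, 46 in replicates 4 to 6 (33.7%), and 18 to 37 with a library left out (18 without Bap1flox OC 5, 19 without Bap1LysM OC 4). In BMMs 1 member passed, 4 with DESeq2 (15.9% of all genes), 3 with voomWithQualityWeights (13.6%), 3 with the replicate block (16.2%), 0 with upper-quartile factors, no filter or all 17 libraries, and 0 to 1 with a library left out. Pathway genes in BMMs went from 4 to 20 with DESeq2, 19 with voomWithQualityWeights, 19 with the replicate block, 2 with filterByExpr, and 0 to 7 with a library left out (0 without Bap1flox BMM 2 or 3, 1 without Bap1flox BMM 1, 2 without Bap1LysM BMM 2 and 7 without Bap1LysM BMM 3). With RANKL, 4 to 8 members passed in Bap1flox with a library left out. In Bap1LysM it was 1 to 9 with a library left out, 1 with Bap1LysM libraries alone, 8 without both libraries numbered 1 and 7 in a fit of all 17 libraries with a set term. Pathway genes there went from 61 to 33 with Bap1LysM libraries alone and 38 to 67 with a library left out (38 without Bap1LysM OC 2). For the interaction, pathway genes went from 0 to 4 with DESeq2, 16 in a fit of all 17 libraries with a set term, and 0 to 3 with a library left out. The replicate block changed no other call of a member than those given with the results, and with RANKL it moved the pathway genes from 20 higher and 59 lower to 21 and 61 in Bap1flox and from 15 and 46 to 14 and 48 in Bap1LysM.

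Among log2 fold changes that reversed in preOCs, replicates 4 to 6 gave -0.02 for Nfe2l2, -0.14 for Nqo1 and -0.05 for Srxn1, replicates 1 to 3 gave 0.08 for Txnrd1 and 0.45 for Prdx1, and the replicate block gave -0.01 for Nqo1. With a library left out Nqo1 ranged from -0.04 to 0.18 and Prdx1 from -0.42 to 0.08. In BMMs voomWithQualityWeights gave 0.18 for Nqo1, and with a library left out Nqo1 ranged from -0.39 to 0.25 and Prdx1 from -0.05 to 0.20. With RANKL and a library left out, Nqo1 ranged from -0.35 to 0.47 in Bap1flox, and Txnrd1 from -0.32 to 0.07, Srxn1 from -0.85 to 0.07 and Sqstm1 from -0.45 to 0.18 in Bap1LysM, where Nqo1 was -0.02 without both libraries numbered 1. For the interaction, leaving out both gave -0.04 for Nfe2l2, -0.05 for Nqo1, -0.26 for Srxn1, -0.35 for Prdx1, -0.42 for Me1 and -0.09 for G6pdx. All 17 libraries with the set as a term gave -0.13 for Srxn1 and -0.11 for Prdx1, and upper-quartile factors gave -0.03 for Me1. With a library left out the interaction ranged from -0.06 to 0.54 for Nfe2l2, -0.45 to 0.18 for Keap1, -0.35 to 0.57 for Srxn1, -0.47 to 0.91 for Prdx1, -0.36 to 0.32 for Me1 and -0.05 to 0.52 for G6pdx.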
